A study of Mus musculus with 112 samples.

Results

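The chromosome 2 segment around Nfe2l2 comprised the CpG cytosines of the mm10 (GRCm38) build between 55675000 and 95705000 on chromosome 2, which is 20 Mb on each side of the gene, without Nfe2l2 itself (75675513 to 75704641). The 13 tables held values at 70287 such cytosines, of 4388579 in the whole genome, and all of them were cytosines of a CpG on the reference (35216 on the forward strand, 35071 on the reverse). DNA methylation (DNAme) had been profiled by reduced representation bisulfite sequencing (RRBS), after cutting DNA with MspI and TaqI, in 112 mouse libraries to ask whether paternal cigarette smoke (CS) and loss of NRF2 change the sperm methylome and whether sons show such changes. Cytosines with a value in at least 4 libraries of every group of a tissue were scoreable, and those at most 100 bp apart were joined into regions of 3 or more. This gave 15853 cytosines and 1000 regions of the segment in F0 sperm (of 1023708 and 62831 in all) and 20972 cytosines and 1206 regions in F1 brain (of 1390836 and 80920).

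In F0 sperm the wild type (WT) males were C57BL/6J, of which 10 were unexposed (control WT) and 9 had been exposed to CS (smoked WT). Exposed WT males were also taken after 3 intervals without smoke, named recovery 1 (9 libraries), recovery 2 (10) and recovery 3 (10). The Nrf2-/- males, described by the study as on a C57BL/6J background, were unexposed (10) or smoked (9). There were 8 brain libraries of F1 sons for each combination of the sire's genotype (WT or Nrf2-/-) and exposure (control or smoked). The study describes this brain tissue as dissected prefrontal cortex. All sons had a CAST/EiJ mother, and those of Nrf2-/- sires carry 1 targeted allele. F1 sperm was profiled only in sons of WT sires, so no genotype comparison could be made there. The Nrf2-/- animals are a single null line. Nfe2l2 encodes NRF2, a transcription factor that switches on antioxidant and detoxifying genes under oxidative stress. Methylation of the cytosine in CpG dinucleotides is largely set during germ cell development in sperm and is low at many CpG islands. A gene targeted in embryonic stem cells and moved to another strain by backcrossing keeps flanking DNA of the stem cell strain, and how far this extends depends on where meiotic crossovers fell. Bisulfite sequencing reads an unmethylated cytosine as thymine, so a C-to-T difference in the DNA itself is read as 0% DNAme. Other differences remove a CpG or a cutting site, and the position may then have no value. The files hold no genotypes, so differences in sequence and in DNAme at a single position cannot be told apart here.

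The tables give percents without read counts, so the depth behind a percent is unknown and precision rests on the spread between libraries. The number of segment positions with a value stood in for depth. Group medians of this number lay between 17682 and 20433 in the 5 WT groups of F0 sperm and at 17246 and 16097 in control and smoked Nrf2-/-, and between 22370 and 23733 in the 4 brain groups. By the heading numbers, Nrf2-/- F0 libraries were 1 to 20 and WT libraries 21 to 70, and brain libraries were 1 to 16 and 17 to 32, so the numbering and the genotype cannot be told apart. A sample of control WT F1 brain carries an Nrf2-/- strain label against its title, was assigned by title, and its column is unknown. At the Osbpl6 cytosine 76447371, all 16 libraries of sons of WT sires ran from 80.7% to 96.7%. All 16 of sons of Nrf2-/- sires ran from 0% to 1.37%, so no WT column was at the Nrf2-/- level there. Inside Nfe2l2, 4 positions had a value in 48 of 48 WT and in 0 of 19 Nrf2-/- F0 libraries. This separates the F0 libraries as labelled, but 136 segment positions outside the gene had the same pattern.

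The sequences below carry the differences described in the next paragraphs. The first 6 are regions in which 1 cytosine, or both strands of 1 CpG, changed from methylated to near 0% (in F0 sperm for the first 5, in F1 brain for Itprid2), with that CpG in capitals. In the Osbpl6 sequence the flanking CpGs in capitals changed in the opposite direction. All are printed 5′ to 3′ on the forward strand of mm10 with 5 bases added on each side.
Tanc1 (intron), chr2:59673566-59673690: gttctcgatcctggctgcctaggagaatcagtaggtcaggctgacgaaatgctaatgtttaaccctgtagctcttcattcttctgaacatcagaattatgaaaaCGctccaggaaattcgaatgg
Myo3b (intron), chr2:70065444-70065592: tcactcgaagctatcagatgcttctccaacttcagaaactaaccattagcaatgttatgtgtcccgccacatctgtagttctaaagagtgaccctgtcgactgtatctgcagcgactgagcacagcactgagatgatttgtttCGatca
Dlx2 (intergenic), chr2:71622666-71622755: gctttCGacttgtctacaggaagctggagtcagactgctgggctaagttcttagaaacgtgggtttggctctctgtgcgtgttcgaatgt
Pde11a (coding sequence), chr2:76158269-76158359: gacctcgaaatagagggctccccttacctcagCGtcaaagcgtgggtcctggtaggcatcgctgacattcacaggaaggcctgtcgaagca
Osbpl6 (intron), chr2:76447344-76447418: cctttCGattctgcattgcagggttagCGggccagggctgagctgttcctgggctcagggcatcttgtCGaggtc
Itprid2 (coding sequence), chr2:79644746-79644807: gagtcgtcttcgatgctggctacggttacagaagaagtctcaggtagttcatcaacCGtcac

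The next pair are stretches in which several neighbouring CpGs, in capitals, were higher in Nrf2-/- sperm by a graded amount.
4932414N04Rik (coding sequence), chr2:68716219-68716347: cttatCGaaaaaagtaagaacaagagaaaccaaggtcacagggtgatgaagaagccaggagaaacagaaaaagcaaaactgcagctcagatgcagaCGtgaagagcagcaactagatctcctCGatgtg
Lnpk (intergenic), chr2:74358623-74358827: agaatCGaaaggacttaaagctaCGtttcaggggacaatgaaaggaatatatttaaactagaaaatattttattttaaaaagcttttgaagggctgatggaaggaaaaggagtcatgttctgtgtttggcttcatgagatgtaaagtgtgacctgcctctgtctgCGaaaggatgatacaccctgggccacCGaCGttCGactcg

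The last pair are the longest runs of positions that had a value in every library of 1 genotype and in none of the other, Nrf2-/- for the Mtx2 run and WT for the Myo3b run, with those CpGs in capitals.
Mtx2 (intron), chr2:74843998-74844151: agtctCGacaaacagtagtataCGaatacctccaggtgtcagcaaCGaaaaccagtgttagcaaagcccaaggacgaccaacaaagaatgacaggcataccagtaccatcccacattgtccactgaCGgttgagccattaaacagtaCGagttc
Myo3b (intron), chr2:70062475-70062735: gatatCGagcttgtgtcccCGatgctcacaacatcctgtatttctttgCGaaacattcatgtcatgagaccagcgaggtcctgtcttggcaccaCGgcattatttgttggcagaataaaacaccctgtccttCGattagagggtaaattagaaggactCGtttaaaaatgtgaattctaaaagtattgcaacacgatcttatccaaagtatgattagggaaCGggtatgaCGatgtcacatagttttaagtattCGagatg

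In control F0 sperm, 16 of 1000 segment regions differed between Nrf2-/- and WT (4 higher and 12 lower in Nrf2-/-, limma adjusted p below 0.05), against 0.409% of all regions and 20 of 3844 regions on the rest of chromosome 2. Between the smoked groups 18 regions differed (8 higher, 10 lower), against 0.401% of all regions and 21 on the rest of the chromosome. The groups compared share no library, but the spread of each region was estimated over all groups of the tissue, so the tests are not independent. There were 13 regions called in both, 3 higher and 10 lower, with the same direction. At single cytosines the counts were 67 of 15853 (30 higher) in the control and 66 (38 higher) in the smoked comparison, and 47 were called in both. The background was 0.0923% and 0.0872% of all cytosines, whereas the segment reached 0.423% and 0.416%. Counts called in both outside the segment are not given here. The control and smoked differences of single cytosines correlated at 0.557 (Pearson's r) in the segment and at 0.285 on the rest of chromosome 2. Most of the segment did not move. The median absolute difference of its regions was 0.632 and 0.643 percentage points in the control and smoked comparison, beside 0.594 and 0.592 over all regions.

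In F1 brain, where sons of Nrf2-/- and WT sires were compared, 7 of 1206 segment regions were called in the control comparison (1 higher, 6 lower), against 0.0124% of all regions, and 0 of 4999 on the rest of chromosome 2, where 396 had an unadjusted limma p below 0.05. In the smoked comparison 8 were called (1 higher, 7 lower), against 0.0816% of all regions and 0.06% of those on the rest of the chromosome. All 7 regions of the control comparison were called in both. Of the regions called genome-wide the segment held 7 of 10 in the control and 8 of 66 in the smoked comparison of brain, and 16 of 257 and 18 of 252 in sperm. Of 20972 cytosines, 22 and 21 were called (1 higher in each), against 0.00216% and 0.00417% of all cytosines, and 20 were called in both. The control and smoked differences of single cytosines in brain correlated at 0.143 (Pearson's r) in the segment and at -0.0331 on the rest of chromosome 2. Without smoked WT brain column 8, whose segment mean lay apart from its group, the smoked comparison called 20 segment regions (1.66%). This stood beside 1177 of all regions (1.45%), so that the shares were close. With this library they were 0.663% and 0.0816%. When the smoked groups were fitted alone, 6 segment regions (0.498%) were called, beside 6 of all regions (0.00741%).

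**Figure D1:**
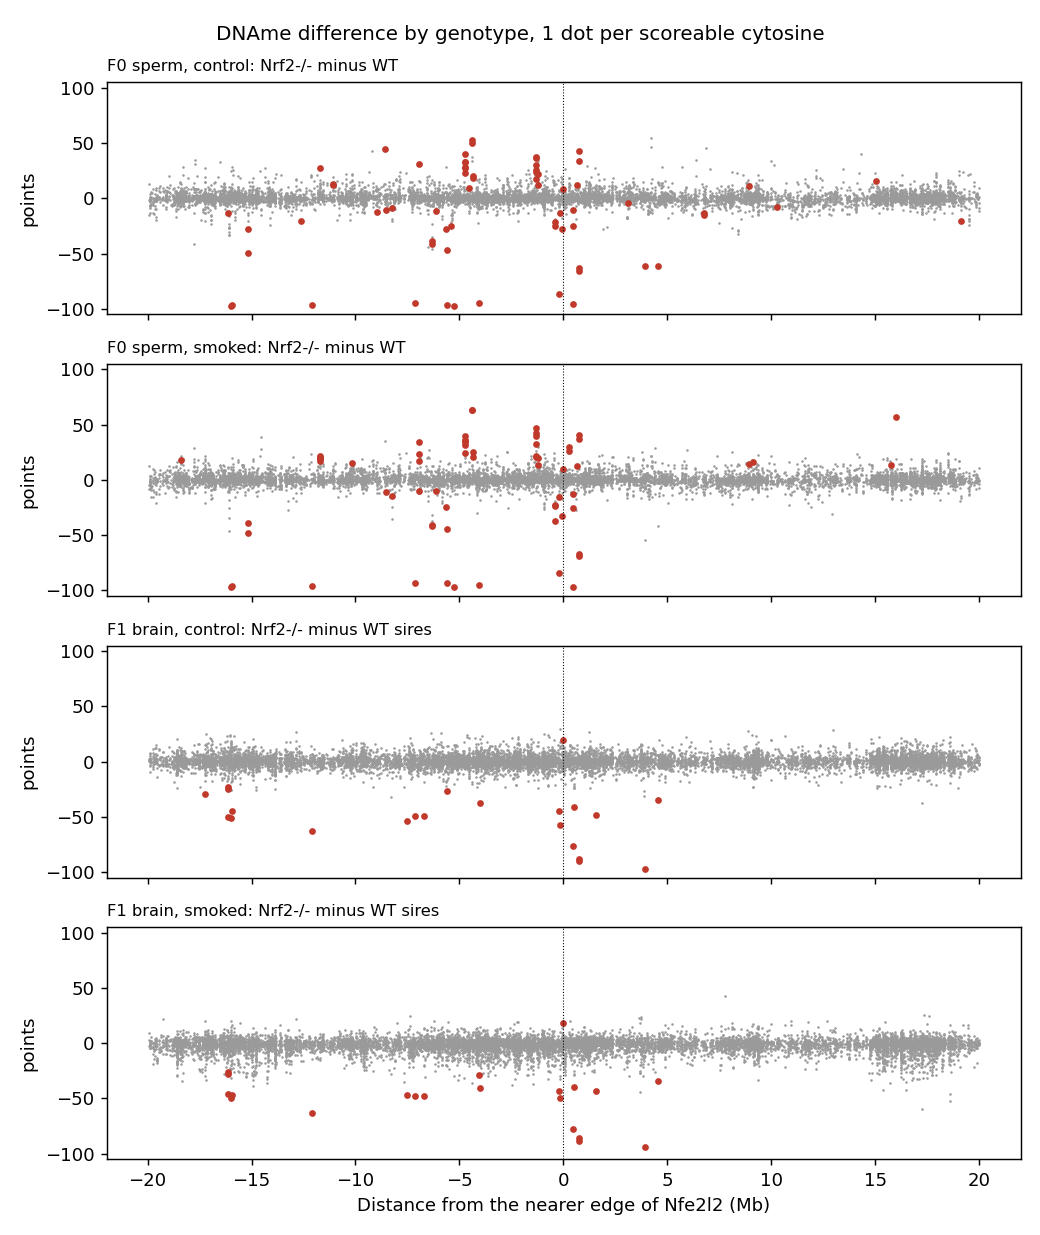
Difference in DNAme between genotypes (percentage points, y axis) at each scoreable cytosine against its distance from the nearer edge of Nfe2l2 (Mb, x axis, negative below the gene), in 4 panels for F0 sperm and F1 brain, control and smoked. Red dots are cytosines with a limma adjusted p below 0.05 and grey dots are the rest. The called cytosines lie mostly between 20 Mb below and 5 Mb above the gene, and a row of F0 cytosines lies near the lower end of the axis.

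The share of single cytosines called varied with distance from the gene, with no test of the trend. In the control comparison of F0 sperm the shares called in successive bins of 5 Mb, starting at the gene, were 0.722%, 0.814%, 0.341% and 0.28% below it and 0.534%, 0.23%, 0.164% and 0.0605% above it. In the smoked comparison they were 0.722%, 0.814%, 0.477% and 0.28% below it and 0.485%, 0.154%, 0% and 0.0605% above it. For regions of the control comparison they were 1.22%, 3.48%, 1.1% and 1.77% below it and 1.5%, 1.2%, 7.14% (2 of 28 regions) and 0.524% above it. Of the 13 regions called in both sperm comparisons, 12 lay between 59673571 and 76447413, from the Tanc1 to the Osbpl6 region, and Ctnnd1, 8.94 Mb above the gene, was the 13th. Regions called in 1 F0 comparison alone were Olfr1015, Olfr1221 and Alx4 (control) and Gpd2, Rapgef4, Lnpk, Prdm11 and Mir670hg (smoked). Of these 8, Gpd2, Rapgef4 and Lnpk lay below the gene and the others 10.1 to 18.5 Mb above it, and in brain Acvr1, below the gene, was called in the smoked comparison alone. These were named after their values were seen, and all but Gpd2 and Mir670hg lost their call when 1 of 4 to 12 single libraries was left out. In brain, limma called none of the 395 regions and none of the 6994 cytosines more than 5 Mb above the gene in either comparison, with 25 and 35 regions and 352 and 472 cytosines at an unadjusted p below 0.05 in the control and smoked comparison.

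Smoke exposure within a genotype moved no segment region and 1 segment cytosine past the threshold. In F0 sperm, limma called 0 segment regions for smoked against control WT (0.00159% of all regions) and 0 for smoked against control Nrf2-/- (0.00637%), with 36 and 46 at an unadjusted p below 0.05. In brain both counts were 0 (0.00124% of all regions in each), with 53 and 96 at an unadjusted p below 0.05. The change in the genotype difference with exposure, fitted as an interaction, was called in 0 segment regions of F0 sperm and 0 of brain (0% of all regions in both), with 4.1% and 8.37% of segment regions at an unadjusted p below 0.05. The cytosine, 90746128 in an intron of Fnbp4, a formin-binding protein gene, was lower in smoked than in control Nrf2-/- sperm by 15.5 points (SE 2.34, adjusted p = 0.012). The 4 control Nrf2-/- libraries with a value ran from 0% to 23.1%, all 5 smoked Nrf2-/- libraries with a value were at 0%, and the groups overlapped. The background at cytosines was 0.00176% for this comparison and 0.000586% for WT in sperm, and 0% for WT and 0.000935% for Nrf2-/- in brain. limma called 0 segment cytosines in each of these other 3, with 782, 849 and 1155 at an unadjusted p below 0.05. The interaction was called at 0 segment cytosines in sperm and brain (0.000195% and 7.19e-05% of all), with 614 and 990 at an unadjusted p below 0.05.

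The region in an intron of Tanc1, which encodes a scaffold protein of the postsynaptic density, held a change at 1 cytosine. Region DNAme in control WT sperm ran from 96.05% to 100% with a median of 96.9% (97.2% ± 1.08, SD, n = 10), and in control Nrf2-/- from 68.8% to 75% with a median of 73.7% (73.0% ± 2.18, n = 10). The smoked groups gave 96.5% ± 2.38 (n = 9) and 71.9% ± 2.54 (n = 9). No library of the 48 WT reached down to any of the 19 Nrf2-/- libraries. The differences were -24.3 points (SE 1.08, adjusted p = 1.98e-27) and -24.5 points (SE 1.14, adjusted p = 2.14e-26). The cytosine at 59673671 ran from 81.8% to 100% over the WT libraries and from 0% to 2.7% over the Nrf2-/- libraries. The other cytosines of the region differed by 0.209 and -0.413 points on average in the control and smoked comparison.

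The same form recurred in 4 other regions called in both F0 comparisons. In Myo3b, a class III myosin, an intronic region fell by 22.4 and 23.5 points in the control and smoked comparison, and its cytosine at 70065587 was at 0% in all 19 Nrf2-/- libraries against 81.2% to 100% in WT. A second Myo3b region at 70421709 to 70421773 fell by 20.7 and 18.4 points, and its cytosine at 70421769 fell by 97.1 and 96.5 points. In intergenic DNA 75917 bp from the start of Dlx2, a homeobox factor of forebrain interneurons, a region fell by 23.1 and 26.5 points, and its cytosine at 71622671 fell by 94.8 and 95.3 points. In the coding sequence of Pde11a, a phosphodiesterase of cyclic nucleotides, the cytosine at 76158301 stood at 0% in all 19 Nrf2-/- libraries and between 78.3% and 100% in WT, and the other 5 cytosines of the region differed by -1.31 and -1.57 points on average. In each of these regions the values of all WT and all Nrf2-/- libraries did not overlap, as was so in 6 of the 1000 segment regions, beside 0.0318% of all regions.

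Osbpl6, which encodes an oxysterol-binding protein relative, held changes in both directions within 65 bp. Its region in an intron ran from 37.4% to 52.6% in control WT, with a median of 44.2%, and from 28.6% to 34.8% in control Nrf2-/-, with a median of 30.8%. The region difference was -13.1 points (SE 1.96, adjusted p = 1.18e-05) in the control and -14.5 points (SE 2.07, adjusted p = 4.23e-06) in the smoked comparison. The cytosines of both strands of its middle CpG, 76447371 and 76447372, averaged 65.8% and 67.9% over the WT libraries and 0% and 1.01% over the Nrf2-/- libraries. The flanking cytosines rose: 76447349 went from 27.8% to 61.7%, and 76447413 from 21.3% to 64.0%. At 76447413 the WT libraries ran from 6.82% to 34.2% and the Nrf2-/- libraries from 46.8% to 82.1%, so the libraries did not overlap there, although for the whole region 1 recovery 3 WT library, at 29.9%, reached into the Nrf2-/- range.

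Counting over the 47 cytosines called in both F0 comparisons, 11 had a mean below 2% in Nrf2-/- and above 30% in WT, with a median difference of -95.0 points. Of these 11, 2 had another called cytosine within 100 bp, both at Osbpl6, where the called neighbours included the 2 flanking cytosines that rose. Beside those already named they were the Tanc1 cytosine at 59727324, the intergenic cytosine 63561413, 377126 bp from the start of Kcnh7, the cytosine 68554587 in an exon of Gm13597, and 75482976, which lies 176285 bp from the start of Hnrnpa3. A further 23 were higher in Nrf2-/- with a median of 29.4 points. The remaining 13 were lower with a median of -26.3 points and kept a Nrf2-/- mean of 2% or more. These classes were drawn after the values were seen. In 20 of the 47 the WT and Nrf2-/- libraries did not overlap, and these were all such cytosines of the segment (0.126%), beside 0.00752% of all scoreable cytosines. In brain 21 segment cytosines did not overlap (0.1%), beside 0.00187% of all.

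Most of the cytosines that were higher in Nrf2-/- lay within 100 bp of another called cytosine (18 of 23). The others were 74434897 and 74435404, nearest to Lnpk, 75658385, nearest to Hnrnpa3, 76341602 at Pde11a and 84643963 at Ctnnd1. In intergenic DNA between 219401 and 219595 bp from the start of Lnpk, which shapes the endoplasmic reticulum, 6 cytosines between 74358628 and 74358822 rose by 17.8 to 37.0 points in the control and by 21.2 to 46.6 points in the smoked comparison. At 74358815 control WT ran from 25% to 53.3% with a median of 35.4%, and control Nrf2-/- from 53.8% to 83.3% with a median of 76.1%. Between 61869 and 62433 bp from the start of Mettl8, 5 cytosines between 70955941 and 70956505 rose by 22.8 to 40.1 and 24.8 to 39.3 points. In the coding sequence of Slc25a12, the mitochondrial aspartate and glutamate carrier, the cytosines 71312451 and 71312479 went from 71.8% and 78.3% in WT to 95.3% and 97.5% in Nrf2-/-, with no overlap of libraries. Another pair in its coding sequence, 71296778 and 71296807, went from 3.09% and 5.26% to 58.5% and 60.4%, over 38 WT and 17 Nrf2-/- libraries with a value, and here the libraries overlapped.

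Among regions, 4932414N04Rik rose in the same graded way. Its 3 cytosines lie in coding sequence, and all 3 were called in both comparisons or in 1 of them. The region ran from 49.8% to 60.7% in control WT with a median of 57.0%, and from 67.4% to 87.2% in control Nrf2-/- with a median of 77.2%. The differences were 20.8 points (SE 2.36, adjusted p = 4.66e-09) and 25.2 points (SE 2.49, adjusted p = 2.94e-11), and the 48 WT and 19 Nrf2-/- libraries did not overlap. In intergenic DNA 410260 bp from the start of Grb14, an adaptor of the insulin receptor, a region rose by 11.4 and 9.9 points (adjusted p = 0.00082 and 0.0141). At Pla2r1, a receptor for secreted phospholipase A2, a region at coding sequence fell from 30.04% ± 5.09 (n = 10) to 3.63% ± 2.97 (n = 10) in the control comparison and from 31.2% ± 9.23 (n = 9) to 4.72% ± 2.25 (n = 9) in the smoked, with 1 library of recovery 1, at 6.46%, reaching into the Nrf2-/- range. An intronic region of 2600014E21Rik fell by 22.8 and 21.5 points, and its Nrf2-/- libraries were spread from 50.9% to 91.4% against 80.3% to 100% in WT.

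The rest of the regions called in both F0 comparisons changed by less. Lrp2, the endocytic receptor megalin, fell by 3.3 and 3.79 points (adjusted p = 0.00496 and 0.00146). In intergenic DNA, 190143 bp from the start of the RNA-binding protein gene Hnrnpa3, a region fell by 6.12 and 9.1 points (adjusted p = 0.0106 and 3.29e-05). In this region recovery 3 WT, at 70.6% ± 3.44 (n = 10), stood near control Nrf2-/- at 69.9% ± 3.45 (n = 10), and the groups overlapped. Ctnnd1, the cadherin-binding p120 catenin, rose by 6.2 and 6.79 points (adjusted p = 0.0336 and 0.0233). The Hnrnpa3 call of the control comparison was lost when its groups were fitted alone (adjusted p = 0.12) and on a log-odds scale (0.0916). The Ctnnd1 calls were lost on a log-odds scale (adjusted p = 0.123 in the control and 0.131 in the smoked comparison), and the smoked call also when its groups were fitted alone (0.213). The Ctnnd1 calls also depended on single libraries. The control call was lost without any 1 of control WT columns 2, 3, 6 and 8 or control Nrf2-/- columns 2, 3, 4, 5 and 9 (adjusted p up to 0.0929), and the smoked call without any 1 of smoked WT columns 2, 4 and 5 or smoked Nrf2-/- columns 3, 5 and 7 (adjusted p up to 0.0977). The other 12 regions called in both sperm comparisons kept both calls with any 1 library left out.

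**Figure D2:**
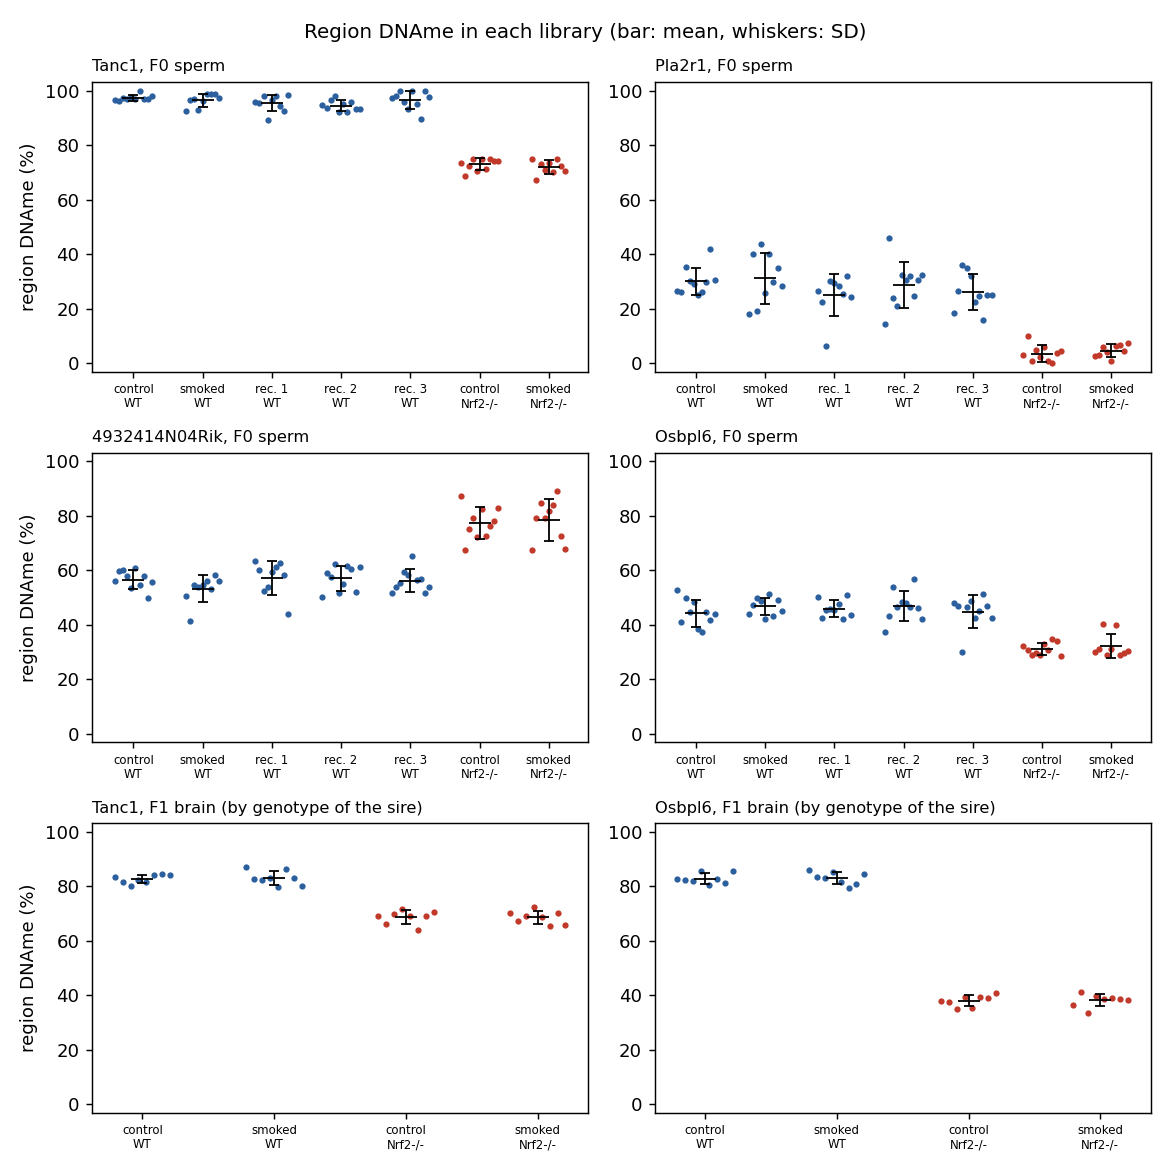
Region DNAme (%, y axis) in each library for Tanc1, Pla2r1, 4932414N04Rik and Osbpl6 in F0 sperm (7 groups) and for Tanc1 and Osbpl6 in F1 brain (4 groups); blue dots are WT and red dots Nrf2-/- (in brain, sons of WT and of Nrf2-/- sires), bars the group mean and whiskers the SD. The 5 WT groups of sperm sit at one level in each panel, and the Nrf2-/- groups sit lower at Tanc1, Pla2r1 and Osbpl6 and higher at 4932414N04Rik.

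In F1 brain, 3 of the regions called were also called in sperm. The Tanc1 region ran from 80.03% to 84.5% with a median of 82.9% in sons of control WT sires and from 63.99% to 71.5% with a median of 69.1% in sons of control Nrf2-/- sires (-14.01 points, SE 1.12, adjusted p = 1.34e-08). The smoked groups differed by -14.3 points (adjusted p = 7.62e-09). The Pde11a region fell by 12.6 and 13.3 points (adjusted p = 0.000141 and 5.6e-05). The Osbpl6 region went from 82.7% ± 1.92 to 38.1% ± 1.97 (n = 8 each, adjusted p = 7.5e-23) and from 82.9% ± 2.26 to 38.2% ± 2.29 (n = 8 each, adjusted p = 7.62e-23). The 16 sons of each genotype of sire did not overlap in these 3 regions, as in 5 of the 1206 segment regions, beside 0.00865% of all regions. The flanking Osbpl6 cytosines that rose by 34.2 and 42.7 points in control sperm differed by -6.01 and 5.52 points in brain, and neither was called.

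The other brain regions called in both comparisons were not among those called in sperm, and at Dapl1 and Cers6 no sperm region could be tested. In sperm the Dapl1 cytosine behind the call, 59522838, had a value in 48 WT and 0 Nrf2-/- libraries, and the Cers6 cytosine 68977924 in 48 WT and 1 Nrf2-/- library. A region 38076 bp from the start of Dapl1 fell from 23.2% ± 3.58 to 12.7% ± 1.72 (n = 8 each, adjusted p = 0.000176) in the control comparison and by 8.38 points in the smoked (adjusted p = 0.00726). An intron of Cers6, a ceramide synthase, fell by 12.2 and 14.3 points, its cytosine at 68977924 fell by 49.4 and 47.9 points, and the others differed by 0.21 and -3.13 points on average. A coding region of Itprid2, 3.94 Mb above Nfe2l2, fell by 20.1 and 23.4 points over 5 or 6 libraries a group. The 1 region that rose, 791 bp from the start of Hnrnpa3, went from 8.19% ± 1.16 to 12.9% ± 1.81 (n = 8 each, adjusted p = 0.00105) and from 8.13% ± 1.01 to 12.6% ± 1.21 (n = 8 each, adjusted p = 0.00269). Its cytosine at 75658385 rose by 19.4 and 18.2 points in brain and by 8.47 and 9.53 points in sperm, called in both. When cytosines up to 300 bp apart were joined, the Hnrnpa3 calls were lost (adjusted p = 0.781 in the control and 0.112 in the smoked comparison), as were those of Itprid2 (0.613 and 0.0515). When the compared groups were fitted alone, the Hnrnpa3 control call (0.0875), the Dapl1 smoked call (0.11) and the Itprid2 smoked call (0.206) were lost, and the Itprid2 control call was lost with plain region means (0.0605).

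The 19 cytosines that were lower in both brain comparisons fell into 3 patterns, drawn after their values were seen. In 9 the sons of WT sires averaged between 24.96% and 50.8% and the sons of Nrf2-/- sires between 0% and 2.17%, at B3galt1, Cers6, Dapl1, Dlx2, Gm13597, Pde11a, Sestd1 and Tanc1. In 6 the averages went from between 69.5% and 97.5% to between 31.9% and 52.8%, at Dapl1, Hnrnpa3, Kcnh7, Prdx6b and Tanc1. In 4 they went from between 77.3% and 97.2% to between 0.184% and 4.04%, at Itprid2, Osbpl6 and Pde11a. The Tanc1 cytosines, 26860 and 80513 bp from a start of the gene, show the first and second pattern. At 59673671 the sons of control WT sires ran from 44.0% to 58.6% and all sons of control Nrf2-/- sires were at 0%, while at 59727324 they ran from 94.6% to 100% and from 47.1% to 61.7%. In F0 sperm the same cytosines averaged 96.9% and 97.7% over WT and 0.248% and 0.146% over Nrf2-/- libraries. In F1 sperm, from 13 sons of WT sires, they averaged 44.9% and 95.5%.

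Across tissues, the kind of change in sperm went with a difference in brain. All 11 cytosines that were near 0% in Nrf2-/- sperm were lower in brain in both comparisons, with a median of -48.6 points, and 8 were called in both brain comparisons. The 23 cytosines that were higher in Nrf2-/- sperm had a median difference of -1.02 points in brain, 11 and 8 of them in the same direction as in sperm, and the Hnrnpa3 cytosine 75658385 was the 1 called. The 13 others had a median of -1.68 points in brain and none was called in both. Over the 14891 segment cytosines scoreable in both tissues, the correlation (Pearson's r) of the sperm and brain genotype differences was 0.164 in the control and 0.18 in the smoked comparison, beside 0.0106 and 0.00746 over 58302 cytosines on the rest of chromosome 2. These points share libraries and are not independent.

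**Figure D3:**
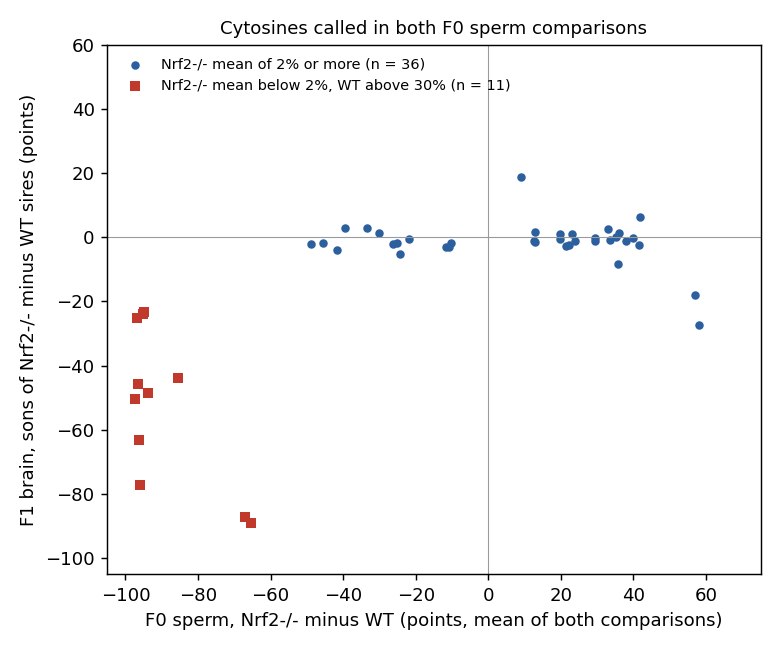
Difference in F1 brain (y axis, percentage points) against difference in F0 sperm (x axis, percentage points) for the 47 cytosines called in both F0 comparisons, each the mean of the control and smoked comparison. Red squares, the 11 cytosines near 0% in Nrf2-/- sperm, all lie below 0 on the y axis, while most of the 36 blue dots lie near 0 on it.

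The second readout was whether a position had a value at all. In F0 sperm, 528 of 22840 segment positions had a value less or more often by genotype (Fisher's exact test, adjusted p below 0.05), 407 less often in Nrf2-/- and 121 more often. This is 2.31% of the segment, against 0.181% of all positions and 0.139% on the rest of chromosome 2. In brain the count was 215 of 25739 (160 less often and 55 more often in sons of Nrf2-/- sires), which is 0.835%, against 0.0226% of all positions and 0 of 105725 on the rest of chromosome 2, where 904 had an unadjusted p below 0.05. The tilt towards less often in Nrf2-/- sperm was not particular to the segment. Over all positions 2203 were called less often and 487 more often, and on the rest of chromosome 2 120 and 5. The minimum of 16 libraries admits a position valued in WT alone at 16 of 48 libraries, but in Nrf2-/- alone only at 16 of 19. Both Nrf2-/- groups of F0 sperm had somewhat fewer segment positions with a value than WT, as given above, and the part of this in the excess of positions less often present was not tested.

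At the extreme, 136 positions had a value in all 48 WT and in 0 of 19 Nrf2-/- F0 libraries, and 52 had a value in all 19 Nrf2-/- and in none of the WT libraries. Such positions made up 0.037% of all positions, and the rest of chromosome 2 held 0 of them among 90212, while 4266 there had an unadjusted Fisher p below 0.05. In brain 91 were valued in all sons of WT sires alone and 29 in all sons of Nrf2-/- sires alone, against 0.00716% of all positions, so that the segment held 120 of the 123 in the genome in brain and 188 of 551 in sperm. Of the 136 WT positions of sperm, 56 were WT positions of brain too (41.2% of the sperm and 61.5% of the brain positions), and 54 had a value in all 32 brain libraries. Of the 52 Nrf2-/- positions, 48 could be tested in brain, 23 were shared (44.2% and 79.3%) and 9 had a value in all 32 brain libraries.

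**Figure D4:**
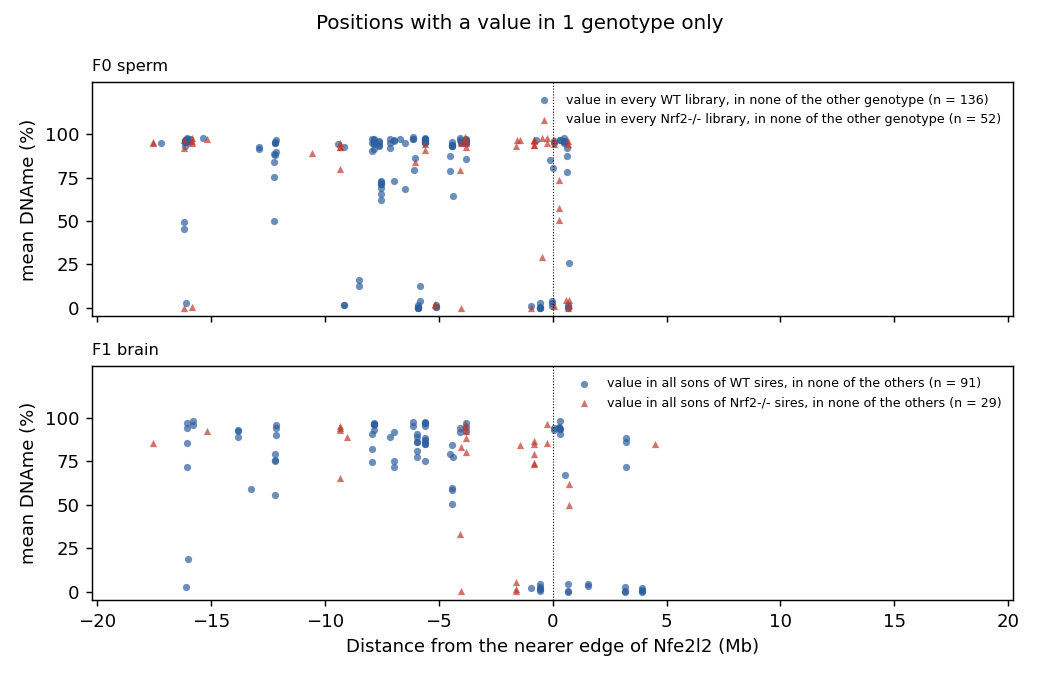
Mean DNAme (%, y axis) of positions with a value in every library of 1 genotype and in none of the other, against distance from Nfe2l2 (Mb, x axis), for F0 sperm (136 WT, blue dots, and 52 Nrf2-/-, red triangles) and F1 brain (91 and 29). Such positions extend 17.5 Mb below the gene in both tissues, and 0.719 Mb above it in sperm and 4.5 Mb above it in brain.

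The WT positions of sperm formed 68 runs with at most 100 bp between neighbours, and the Nrf2-/- positions formed 29. The longest, in an intron of Myo3b, held 10 WT positions over 251 bp with a mean DNAme of 96.5% in WT sperm and 89.6% in brain of sons of WT sires. All 10 tested positions within that span were of this kind in both tissues. The longest of the other kind, in an intron of Mtx2, which belongs to the import machinery of mitochondria, held 5 positions over 144 bp with a mean of 95.4% in Nrf2-/- sperm and 79.9% in brain of sons of Nrf2-/- sires. In intergenic DNA 17733 bp from the start of B3galt1, a galactosyltransferase gene, 7 WT positions over 50 bp averaged 69.4%. Methylation of these positions was mostly high, with a median of 94.0% for the WT and 93.9% for the Nrf2-/- positions, and 27 and 11 of them lay below 20%. By gene overlapped or nearest start, the WT positions were most frequent at B3galt1 (19), Kcnh7, a voltage-gated potassium channel (12), Myo3b (10) and Pde11a (10), and the Nrf2-/- positions at Mtx2 (5), Pde11a (4), Scn1a, a neuronal sodium channel (4), and Wdsub1 (4). Of the sperm positions, 51 of the WT and 18 of the Nrf2-/- kind were intergenic, among them most of those at Kcnh7. The counts are not set against the number of positions tested at each gene.

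The positions of this kind bound a stretch of the chromosome. In sperm it ran from 58143780 in an intron of Cytip to 76423629, which is 18.3 Mb, with 17.5 Mb below and 0.719 Mb above Nfe2l2. Within it 492 of 12290 positions (4%) were called by the Fisher test. Below it 0 of 956 were called, with 42 at an unadjusted p below 0.05, and above it 36 of 9594 (0.375%). In brain the stretch ran from the same position to 80209068, which is 22.1 Mb, with 4.5 Mb above the gene, and held all 215 positions called, with 0 of 970 below and 0 of 8883 above, where 11 and 81 had an unadjusted Fisher p below 0.05. The limits are read from these positions themselves, so the contrast within and outside them is a description. More than 5 Mb above the gene, sperm held 9 called positions of 7250 (0.124%, beside 0.181% of all positions), of which 3 were nearest to Zc3h15, 2 to Olfr1143 and 4 to Api5, named after their values were seen.

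Above the sperm limit, the Nrf2-/- libraries differed among themselves at many positions between 1.58 and 4.57 Mb from Nfe2l2. Of the 36 positions called above the limit, 25 lay there, and 14 of these, at Sestd1, Zfp385b, Ube2e3 and Itprid2, from 77280058 to 79636265, had a value in 48 of 48 WT libraries and in the same 10 of 19 Nrf2-/- libraries. These were 4 control libraries (columns 2, 6, 8 and 10) and 6 smoked libraries (columns 2, 3, 4, 5, 7 and 9). The other 11 had a value in 6 to 11 of the 19. This did not hold for every position above the limit, since 2 nearer positions at Osbpl6, 76447542 and 76447560, had a value in 36 WT and 0 of 19 Nrf2-/- libraries, and the Ube2e3 cytosine 78791627, 3.09 Mb above the gene, stood between 78.7% and 88.1% in all 19. The cytosine at 80247611, 44861 bp from the start of Prdx6b, a peroxiredoxin gene, had a value in all 67 libraries. In control Nrf2-/- columns 1 to 10 it stood at 0%, 51.1%, 0%, 0%, 0%, 87.5%, 0%, 65%, 0% and 97.4%. In smoked Nrf2-/- columns 1 to 9 it stood at 0%, 100%, 80%, 44.1%, 50%, 0%, 93.8%, 0% and 90.5%. The WT libraries ran from 68.2% to 100%. Thus 9 Nrf2-/- libraries were at 0%, 4 between 40% and 70% and 6 at 80% or above, and the 10 libraries above 0% were the same 10 that had values at the 14 positions.

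At Itprid2 the libraries at 0% were among the 9 at 0% at Prdx6b, while at Sestd1 1 library differed. The Sestd1 cytosine 77272690, 1.57 Mb above the gene, was at 0% in control Nrf2-/- columns 1, 2, 3, 4 and 9 and between 80% and 100% in control columns 6 and 10 and smoked columns 2, 3, 4, 5 and 9, with no value in the rest. Control column 2 thus stood at 0% here and at 51.1% at Prdx6b. At the Itprid2 cytosine 79644802, control Nrf2-/- columns 1, 4, 5, 7 and 9 were at 0%, column 2 at 55.2% and columns 6 and 10 at 100%, with no value in columns 3 and 8. Of the smoked libraries, columns 1 and 6 were at 0%, column 4 at 12.5%, column 5 at 46.2% and columns 2 and 9 at 100%, with no value in columns 3, 7 and 8. The cytosine differed by -61.4 points in control sperm (adjusted p = 0.0199) and by -54.1 points in smoked sperm (adjusted p = 0.124). At Prdx6b the differences were -61.6 points (adjusted p = 0.000373) and -41.7 points (adjusted p = 0.154). In brain the sons of each genotype of sire did not overlap at either cytosine. At 79644802 the sons of Nrf2-/- sires averaged 1.3% (n = 11 with a value, from 0% to 14.3%) against 97.2% (n = 11) in sons of WT sires, and at 80247611 they averaged 35.3% (n = 16, from 18.8% to 48.3%) against 69.5% (n = 16, from 58.3% to 77.4%). Nearer to the gene, the Osbpl6 cytosine 76447372, 0.743 Mb above it, was at 0% to 7.45% in all 19 Nrf2-/- sperm libraries.

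**Figure D5:**
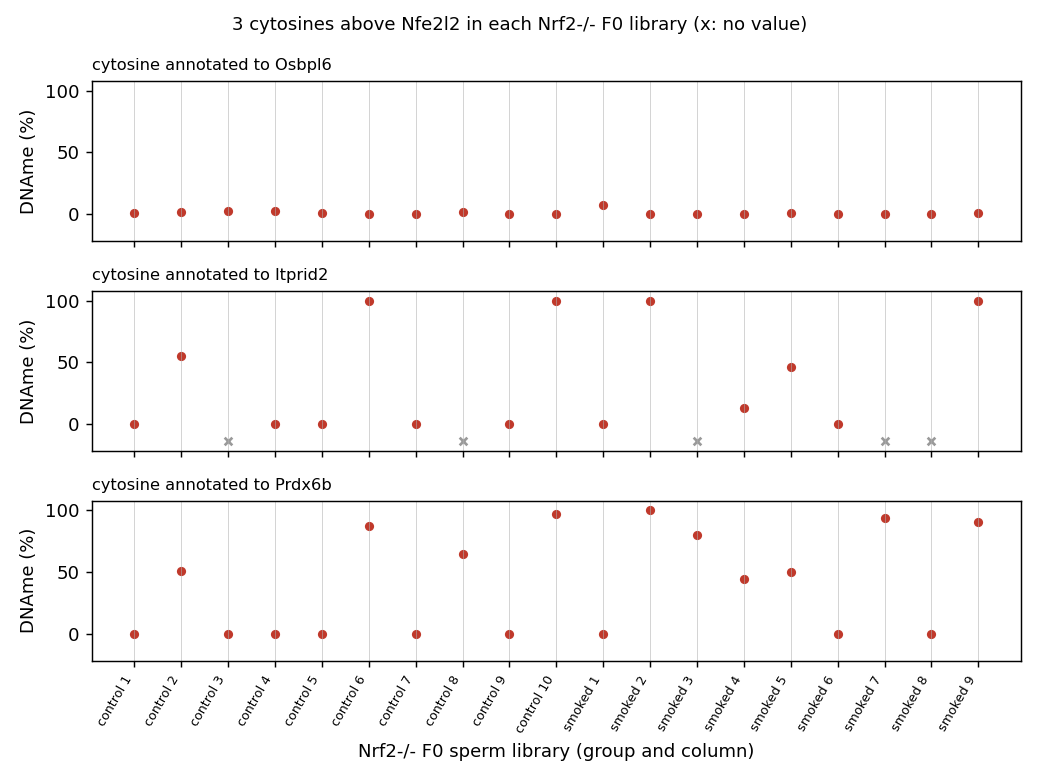
DNAme (%, y axis) of the cytosines at Osbpl6, Itprid2 and Prdx6b, at 0.743, 3.94 and 4.54 Mb above Nfe2l2, in each of the 19 Nrf2-/- F0 sperm libraries (x axis, group and column); a cross marks a library with no value. All libraries are near 0% at Osbpl6, while at Prdx6b 9 are at 0% and 10 range from 44.1% to 100%.

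None of the 3 regions nearest to Nfe2l2 on each side was called in sperm, although single cytosines and positions nearby were. These regions, which lie within 608 bp of a start of Hnrnpa3, at E030042O20Rik, and 28769 and 39380 bp upstream of Nfe2l2, differed by at most 1.05 points in either comparison, with limma adjusted p of 0.902 or above. Outside them, the sperm cytosine 75658385 rose by 8.47 and 9.53 points and 75622983 fell by 27.6 and 32.9 points, both called in both comparisons. In sperm, 3 of the 4 positions tested from 75658354 to 75658386, below the gene, were valued in WT alone, as was 75726044 above it. Of the 6 nearest in brain, the other 5 beside the Hnrnpa3 region described above differed by at most 2.4 points, with adjusted p of 0.646 or above.

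Gene lists of the segment held at most 99 regions each, and no test compared the lists. Of the 13 regions called in both sperm comparisons, only those at Pde11a and Osbpl6 belonged to a list. Of 81 sperm regions at 14 neighbours of Nfe2l2, 2 were called in each comparison, at Pde11a and Osbpl6. This stands beside 1.6% and 1.8% of segment regions and 0.409% and 0.401% of all regions. Of 99 brain regions at 15 neighbours, 3 were called in each comparison, at Hnrnpa3, Pde11a and Osbpl6. Here the shares were 0.58% and 0.663% of segment regions and 0.0124% and 0.0816% of all regions. The HoxD cluster, whose genes pattern the limbs and the body axis, had 0 of 55 regions called by limma in each sperm comparison and 0 of 56 in each brain comparison, with 4, 5, 5 and 6 at an unadjusted p below 0.05. Its median absolute difference was 0.355 points in control sperm, beside 0.594 over all regions. Forebrain transcription factors with Gad1 had 0 of 38 and 0 of 47 called by limma (1, 3, 1 and 4 unadjusted), and the sodium channels 0 of 9 and 0 of 10 (2, 2, 0 and 2 unadjusted). The other transcription factors had 1 of 18 in control sperm (Alx4) and 0 called by limma in the other 3 comparisons (1, 1 and 0 unadjusted). Olfactory receptors, a family of 287 annotated genes here, had only 10 regions in sperm, of which Olfr1221 was called in 1 comparison, and 11 in brain, of which limma called 0 in each comparison (1 and 0 unadjusted). By presence in sperm, where 0.181% of all positions and 2.31% of the segment were called, 4.4% of 1683 positions were called at the neighbours, 7.32% of 246 at the sodium channels, 1.5% of 869 at the forebrain genes, 0.489% of 1226 at the HoxD cluster, 0.57% of 351 at the olfactory receptors and 0% of 574 at the other transcription factors, where 36 had an unadjusted Fisher p below 0.05. In brain, beside 0.0226% of all positions and 0.835% of the segment, the shares were 1.63% of 1897 at the neighbours, 2.18% of 229 at the sodium channels, 0.299% of 1005 at the forebrain genes and 0.141% of 1419 at the HoxD cluster. They were 0% of 351 at the olfactory receptors and 0% of 620 at the other transcription factors, with 7 and 0 at an unadjusted Fisher p below 0.05.

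Averaged over the scoreable cytosines of the segment, no genotype difference passed the test, although 1 did over the cytosines valued in every library. Mean DNAme over the scoreable cytosines was 39.1% ± 1.71 (n = 10) in control Nrf2-/- and 38.1% ± 2.72 (n = 10) in control WT sperm, a difference of 1.03 points (two-sided permutation test, p = 0.331, 0.441 after Benjamini-Hochberg adjustment over 4 comparisons). The smoked groups of sperm differed by 0.84 points (38.3% ± 2.39 and 37.4% ± 2.74, n = 9 each, exact permutation p = 0.496). In brain the control groups differed by 0.432 points (37.3% ± 0.493 and 36.9% ± 0.64, n = 8 each, exact permutation p = 0.157, adjusted 0.313) and the smoked groups by -1.45 points (35.9% ± 1.74 and 37.3% ± 1.88, n = 8 each, exact permutation p = 0.132, adjusted 0.313). The rest of chromosome 2 moved alike, by 0.816, 0.599, 0.57 and -1.52 points. Over the 13491 segment cytosines valued in every brain library, the control groups differed by 0.331 points (33.9% ± 0.261 and 33.6% ± 0.184, n = 8 each, exact permutation p = 0.00855, adjusted 0.0342), beside 0.519 points on the rest of chromosome 2. Over the same segment cytosines the smoked groups of brain differed by -0.507 points (exact permutation p = 0.0401, adjusted 0.0802). On the rest of chromosome 2 they differed by -0.48 points (exact permutation p = 0.0923, adjusted 0.185). The size of these differences moved with the cytosines averaged. Over all cytosines with a value the control groups of sperm differed by 2.34 points (permutation p = 0.186, adjusted 0.373) and the smoked groups of brain by -3.85 points (exact permutation p = 0.0527, adjusted 0.211), while the control groups of sperm differed by 0.0994 points over cytosines valued in every library (permutation p = 0.769).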

How the data were processed

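RRBS libraries of F0 sperm, F1 sperm and F1 brain were aligned by the authors to mm10 with Bismark (version not given in the sources used here), and the deposited tables, 1 per group, hold a methylation percent per library and cytosine. The study scored CpGs above a minimum of reads, and whether the deposited percents carry it is not stated. Columns were assigned to groups by table and named by their order, with no replicate number, and 0 columns of values were left unused. The study describes its replicates as animals, and which sons share a sire or litter is not given in the sources used here. Regions had to be longer than 50 bp, and a library needed a value at 50% or more of a region's cytosines. A region value was the mean of its cytosines, adjusted for which of them had a value in a library. Group means were fitted on the percent scale over all groups of a tissue, for all regions or cytosines of the genome, with limma 3.58.1 (R 4.3.3), with Benjamini-Hochberg adjustment over all of them. limma warned of features without variance, whose variances it offset from 0. Presence of a value was compared between all WT and all Nrf2-/- libraries of a tissue by Fisher's exact test, two-sided, at positions with a value in at least 16 (sperm) or 8 (brain) libraries. Segment means were compared by permutation, exact where n is below 10 (otherwise 100000 resamples). Genes were taken from GENCODE M21, and a region takes the gene it overlaps or else the nearest start. Named are up to 12 regions in sperm and up to 10 in brain called in both comparisons in 1 direction, the 3 regions nearest to Nfe2l2 on each side, and positions valued in 1 genotype alone. Ctnnd1 was added as the 13th. Gene lists took regions overlapping a listed gene or within 5000 bp of its start. Members, lists and tests were chosen with earlier results of these data known. The alternatives were other samples in the fit, a log-odds scale, 300 bp joining, plain region means, at least 6 libraries a group, changes above 10 points, leaving out each library, and other sets of positions. The scripts were tested on simulated data.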

Additional observations from a re-analysis of the deposited data

Results flagged for a closer look

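Of 88 groups of 4 to 10 libraries examined, 9 held a library whose gap to the nearest other library was large against the range of its group (Dixon's criterion), and chance gives about 1 in 20. In control WT sperm these were column 7 at Tanc1, at 100% against a group median of 96.9%, column 6 at Pde11a, at 87.5% against 95.4%, and column 3 at Ctnnd1, at 62.9% against 68.0%. In smoked WT sperm they were column 2 at 4932414N04Rik, at 41.4% against 54.4%, column 4 at Lrp2, at 91.9% against 94.1%, and column 6 at the Hnrnpa3 region starting at 75468986, at 83.3% against 78.2%. In control WT brain, column 8 stood at 10.8% against 7.78% at the Hnrnpa3 region starting at 75658385. For the mean of the segment, control Nrf2-/- sperm column 6 stood at 43.1% against 39.1%, and smoked WT brain column 8 at 33.0% against 37.9%. Both had the fewest positions with a value in their groups, 966374 and 1332684 over all chromosomes. A link between this and the segment mean was not tested.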

How the results depend on the processing

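No genotype comparison recomputed under an alternative reversed. The counts between exposures and of the interaction were not recomputed. Joining cytosines up to 300 bp apart gave 28 called regions in control (1.96% of the segment, 0.506% of all regions) and 29 in smoked F0 sperm (2.03%, 0.444%). Asking for more than 10 points left 11 in smoked F0 sperm (1.1%, 0.22%) and 5 in smoked F1 brain (0.415%, 0.063%). Fitting the compared groups alone left 42 called cytosines in control F0 sperm (0.265%, 0.0328%). The all-or-none rule gave 188 positions in sperm and 120 in brain. Control groups alone gave 0 positions in brain by Fisher's exact test, since 8 against 8 libraries cannot pass the adjustment over so many positions, with 242 at an unadjusted p below 0.05. A minimum of 32 libraries cannot admit a sperm position valued in Nrf2-/- alone. Over cytosines valued in every library, the control brain segment mean differed by 0.331 points (exact permutation p = 0.00855, adjusted 0.0342, n = 8 each), beside 0.519 on the rest of chromosome 2. Leaving out 1 library at a time gave 12 to 17 regions in control and 14 to 20 in smoked sperm, and 7 to 8 in control and 7 to 20 in smoked brain, where 20 came without smoked WT column 8 (1.66% of the segment, beside 1.45% of all regions). Of the adjusted p-values of named regions, 25 lost and 1 gained a call under the other settings and 366 did neither. With 1 library left out, 67 lost and 2 gained a call, and 1373 did neither. No paired analysis was possible because the columns carry no replicate number. The read depth behind each percent limits all values and is unknown.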
